A study of Mus musculus with 20 samples.

Results

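The genes described here encode the alcohol dehydrogenases, aldehyde dehydrogenases and aldo-keto reductases measured in mouse liver by RNA sequencing. They were taken from the deposited gene table as the protein-coding genes whose symbols begin with Adh, Aldh or Akr1a to Akr1e followed by the family numbering, with Aldh1l1, Aldh1l2 and Akr1d1 left out, and they number 40 of the 38924 genes in the table. Adh6-ps1 is among them because the table lists it as protein coding, although its symbol is that of a pseudogene. The 20 libraries came from male mice on a background the labels call C57/BL6 and the methods C57BL/6J, bought at 5 weeks of age, acclimated for 1 week and fed for 12 weeks, with 5 mice in each of 4 groups. NDWT were wild type (WT) mice on control diet, NDKO were TSP-1 knockout (TSP-1 null) mice on control diet, HFWT were WT mice on CDAHFD and HFKO were TSP-1 null mice on CDAHFD. CDAHFD is a diet high in fat, limited in methionine and free of choline, with defined amino acids. It is used to bring about steatohepatitis with fibrosis in mice. TSP-1 is thrombospondin-1, the product of Thbs1, and the knockout is a constitutive line, so the allele was altered in all cells of the mouse. The comparisons ask how the diet changed the liver in each genotype and whether the genotypes differed on each diet.

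Alcohol dehydrogenases oxidize alcohols such as ethanol and retinol to aldehydes with NAD, and aldehyde dehydrogenases carry the product on to an acid. Aldo-keto reductases mostly work the other way, reducing aldehydes, sugars and keto steroids with NADPH. In liver the hepatocytes hold most of these enzymes, which clear dietary ethanol, the aldehydes of lipid peroxidation and steroid hormones, and several of them make or break down retinoic acid.

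Levels are given as FPKM, the fragments per kilobase of gene for a fixed total of fragments assigned to genes. Libraries held 15641545 to 23276322 fragments, and 3 fragments on a gene of 1 kb corresponded to 0.129 to 0.192 FPKM, depending on the library. The Thbs1 values went against the genotype labels on control diet. They were 0.058 to 0.326 FPKM in NDWT and 0.986 to 1.90 FPKM in NDKO, and on CDAHFD the HFWT range of 3.46 to 6.10 FPKM overlapped the HFKO range of 3.05 to 4.4 FPKM. Which bases the null allele lacks is not given in the sources used here, and fragments from the rest of the gene would still be counted. Genotype below therefore means the genotype each library is labelled with, NDKO and HFKO being the libraries labelled TSP-1 null. All 8 hepatocyte markers were present, with a summed level of 27000 FPKM in the lowest library. A gene was tested with limma if 5 or more of its libraries were over 0.5 FPKM, which 32 of the 40 were, the others being Adh6a, Adh6b, Aldh3a1, Aldh3b2, Akr1b7, Akr1c18, Akr1c21 and Akr1cl. A gene was called when its Benjamini-Hochberg FDR over all 14524 tested genes was under 0.05 and its log2 fold change (log2FC) exceeded 0.58 in size. Where given, the ± value after a log2FC below is its standard error (SE), and the FDR is that of limma. The p-values measure the spread between these mice and their libraries.

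Many of these genes lie side by side. With neighbours at most 250000 bases apart, 6 clusters held 26 of the 40. The largest, on chromosome 13 from 4049011 to 4609174 of GRCm38, held 8 Akr1c genes and Akr1e1, and the one on chromosome 3 from 138217823 to 138455499 held all 7 Adh genes. Akr1b3, Akr1b8, Akr1b10 and Akr1b7 lay on chromosome 6 from 34303934 to 34423142, and Aldh1a1 and Aldh1a7 lay on chromosome 19 from 20601961 to 20727562. The others were the pairs Aldh3b1 with Aldh3b2 on chromosome 19 and Aldh3a1 with Aldh3a2 on chromosome 11. None of the 40 lay on chromosome 2, which carries Thbs1.

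Neighbours also share sequence, which bears on the counting of their fragments. Transcripts of Akr1c12 and Akr1c13 had 483 stretches of 31 bases in common, or 39.2% of those in the one with fewer, Aldh1a1 and Aldh1a7 had 281 (13.8%), Aldh3b1 and Aldh3b2 had 217 (10.8%), and Akr1c6 and Akr1c20 had 112 (6.03%). The split of fragments within these pairs, and among Akr1b7, Akr1b8 and Akr1b10, is therefore uncertain. The 250 bases before the start of transcription are shown for the Aldh1a1 and Aldh1a7 pair, both of which were lower in NDKO than in NDWT and higher in HFWT and HFKO than in the controls of their genotype. They come from RefSeq on GRCm38.p6, which gives Aldh1a1 several starts, and the one used here is nearest to the start of the gene in the table. Its sequence lies at chr19:20601718-20601967 on the plus strand. The Aldh1a7 sequence lies at chr19:20727557-20727806 on the minus strand. Capitals mark runs of at least 12 bases found in both.
Aldh1a1: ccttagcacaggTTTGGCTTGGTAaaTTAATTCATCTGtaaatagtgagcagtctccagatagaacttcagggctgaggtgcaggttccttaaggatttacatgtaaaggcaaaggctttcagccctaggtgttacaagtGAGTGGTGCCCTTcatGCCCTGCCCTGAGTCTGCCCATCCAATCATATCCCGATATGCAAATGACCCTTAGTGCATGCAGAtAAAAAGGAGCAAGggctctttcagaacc
Aldh1a7: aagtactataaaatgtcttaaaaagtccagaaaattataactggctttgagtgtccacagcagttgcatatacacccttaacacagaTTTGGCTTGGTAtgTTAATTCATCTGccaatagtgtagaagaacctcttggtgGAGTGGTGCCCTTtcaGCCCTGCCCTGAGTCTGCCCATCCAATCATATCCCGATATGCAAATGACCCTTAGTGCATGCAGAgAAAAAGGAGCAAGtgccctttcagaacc
The aligned sequences were 68.0% identical, and the longest shared run was 65 bases long. Akr1c12 (chr13:4279400-4279649, minus strand) and Akr1c13 (chr13:4190937-4191186, plus strand) are shown because their promoters were the closest of the pairs compared.
Akr1c12: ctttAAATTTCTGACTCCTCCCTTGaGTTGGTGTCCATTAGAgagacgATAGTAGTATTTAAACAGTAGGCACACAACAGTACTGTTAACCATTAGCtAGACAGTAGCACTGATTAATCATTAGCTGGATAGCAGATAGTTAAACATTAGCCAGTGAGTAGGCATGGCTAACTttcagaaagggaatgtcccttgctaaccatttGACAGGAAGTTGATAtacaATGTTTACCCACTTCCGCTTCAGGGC
Akr1c13: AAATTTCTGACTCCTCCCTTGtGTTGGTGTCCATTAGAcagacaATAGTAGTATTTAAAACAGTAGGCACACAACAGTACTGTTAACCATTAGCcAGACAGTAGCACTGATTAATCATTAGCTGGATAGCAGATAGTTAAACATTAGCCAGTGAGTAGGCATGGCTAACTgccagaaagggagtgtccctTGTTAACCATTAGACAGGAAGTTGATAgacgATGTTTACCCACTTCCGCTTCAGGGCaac
These were 92.5% identical with a shared run of 75 bases. By contrast, the promoters of Adh1, Adh4 and Adh7 were 48.2% to 49.8% identical and had no common run above 9 bases. The core of the antioxidant response element, TGACNNNGC on either strand, was found in the promoters of 4 of the 31 members with a RefSeq entry, namely Adh6a, Akr1cl, Aldh1a2 and Aldh9a1, and in 10.2% of all 32851 promoters of this length.

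Expression of the family was dominated by a few genes. In NDWT the mean level was 638 ± 53.6 FPKM (SD, n = 5, as for all means below) for Aldh1a1, a retinaldehyde and acetaldehyde dehydrogenase of the cytosol, 561 ± 69.6 for Aldh2, the mitochondrial enzyme that clears acetaldehyde, and 552 ± 60.2 for Adh1, the main ethanol dehydrogenase of liver. Their ranges overlapped, so their order is not resolved. By mean level they ranked 84, 105 and 107 among 22572 protein-coding genes. Akr1c6, a hydroxysteroid dehydrogenase, followed at 315 ± 52.9 FPKM and Aldh3a2, which oxidizes long fatty aldehydes, at 203 ± 26.7 FPKM. At the other end, the 8 untested genes had group means of at most 0.888 FPKM. Akr1cl was listed at 0 in NDWT, NDKO and HFKO, and had a mean of 0.0134 FPKM in HFWT with at most 3 fragments in a library. Adh6a and Adh6b stayed at or under 0.152 FPKM in each library, Aldh3a1 and Aldh3b2 at or under 0.115 FPKM, and Akr1c21 at or under 0.222 FPKM. Replicates were close: the median coefficient of variation over the tested members was 13.5% in NDWT, 11.3% in HFWT, 10.1% in NDKO and 13.4% in HFKO.

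**Figure D1:**
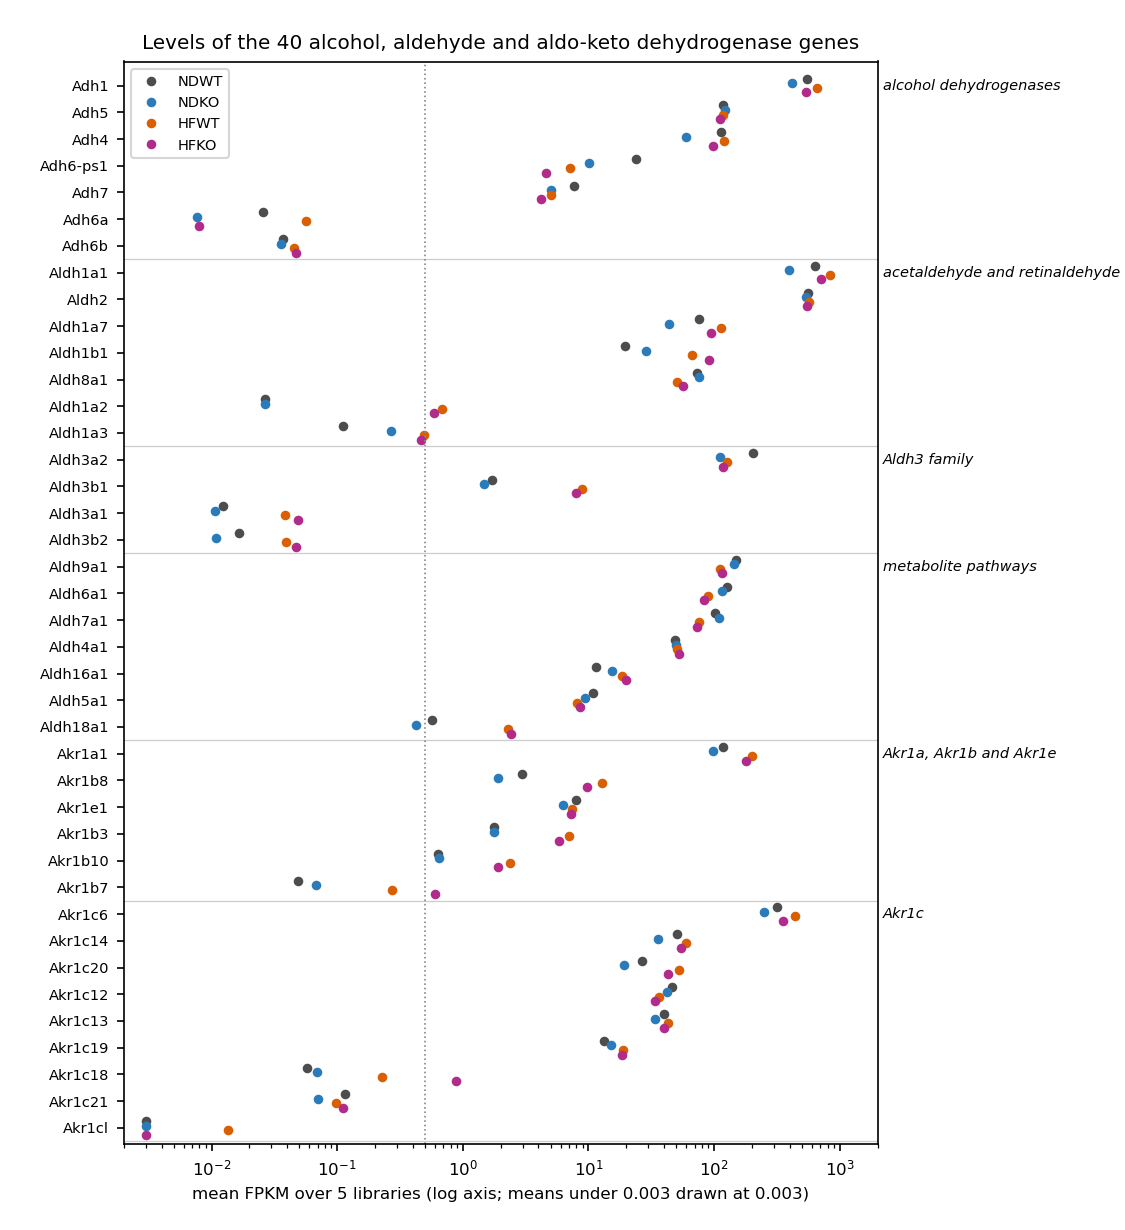
Mean FPKM over 5 libraries (log axis) of each of the 40 genes in the 4 groups, ordered by role, with a dotted line at 0.5 FPKM. Aldh1a1, Aldh2, Adh1 and Akr1c6 lead in each group, while Akr1cl is drawn at the left edge where it was listed at 0. The dots of Aldh1a2, Aldh3b1, Aldh18a1, Akr1b8, Akr1b3 and Akr1b10 separate by diet.

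With CDAHFD, 12 of the 32 tested genes were called higher and 3 lower in WT mice, and 13 higher and 2 lower in the libraries labelled TSP-1 null. Aldh1a2 and Aldh1a3 passed the filter only through CDAHFD libraries, and Aldh18a1, over the minimum in 4 NDWT libraries, also needed them. The filter thus favoured higher values on CDAHFD for these 3. Without them the calls were 9 higher and 3 lower of 29 in WT and 11 higher and 2 lower of 29 in TSP-1 null. Akr1b3, Akr1b8, Akr1b10, Aldh1a2, Aldh1b1, Aldh3b1 and Aldh18a1 were called higher in both genotypes with log2FC of 1.44 to 2.63, of which the Aldh1a2 value depends on the pseudocount. The share called, 46.9% in each genotype, was near that over all tested genes, which was 48.8% in WT (44.1% higher and 4.62% lower) and 45.9% in TSP-1 null (41.9% higher and 4.0% lower). In WT 14 genes lay above and 8 below the controls without overlap, and in TSP-1 null 13 above and 5 below, beside 56.2% and 57.8% of all tested genes without overlap in either direction. The median log2FC of the 32 was 0.27 in WT and 0.37 in TSP-1 null, beside 0.53 and 0.50 over all tested genes.

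That shift of all genes matters for the smaller changes. With libraries scaled by the median of ratios, the all-gene medians became -0.01 in each genotype. The calls became 8 higher and 10 lower in WT and 8 higher and 9 lower in TSP-1 null. Of all 14524 tested genes 38.15% were called in WT (3299 higher and 2242 lower) and 35.84% in TSP-1 null (3225 higher and 1980 lower). The 7 genes just named kept their calls in both genotypes, though Aldh1a2 and Aldh18a1 had needed CDAHFD libraries to pass the filter. Akr1a1 and Aldh1a7 lost theirs in both genotypes, Akr1c20 and Aldh16a1 in WT, and Adh4, Aldh1a1 and Akr1c14 in TSP-1 null. Under that scaling Adh6-ps1, Adh7, Akr1c12, Aldh5a1, Aldh6a1, Aldh7a1, Aldh8a1 and Aldh9a1 were called lower in both genotypes, Akr1e1 also in WT and Adh5 also in TSP-1 null. Quantile normalization called 13 higher and 6 lower in WT, and 13 higher and 4 lower in TSP-1 null. It called 34.95% of all tested genes in WT (2514 higher and 2562 lower) and 31.72% in TSP-1 null (2421 higher and 2186 lower).

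**Figure D2:**
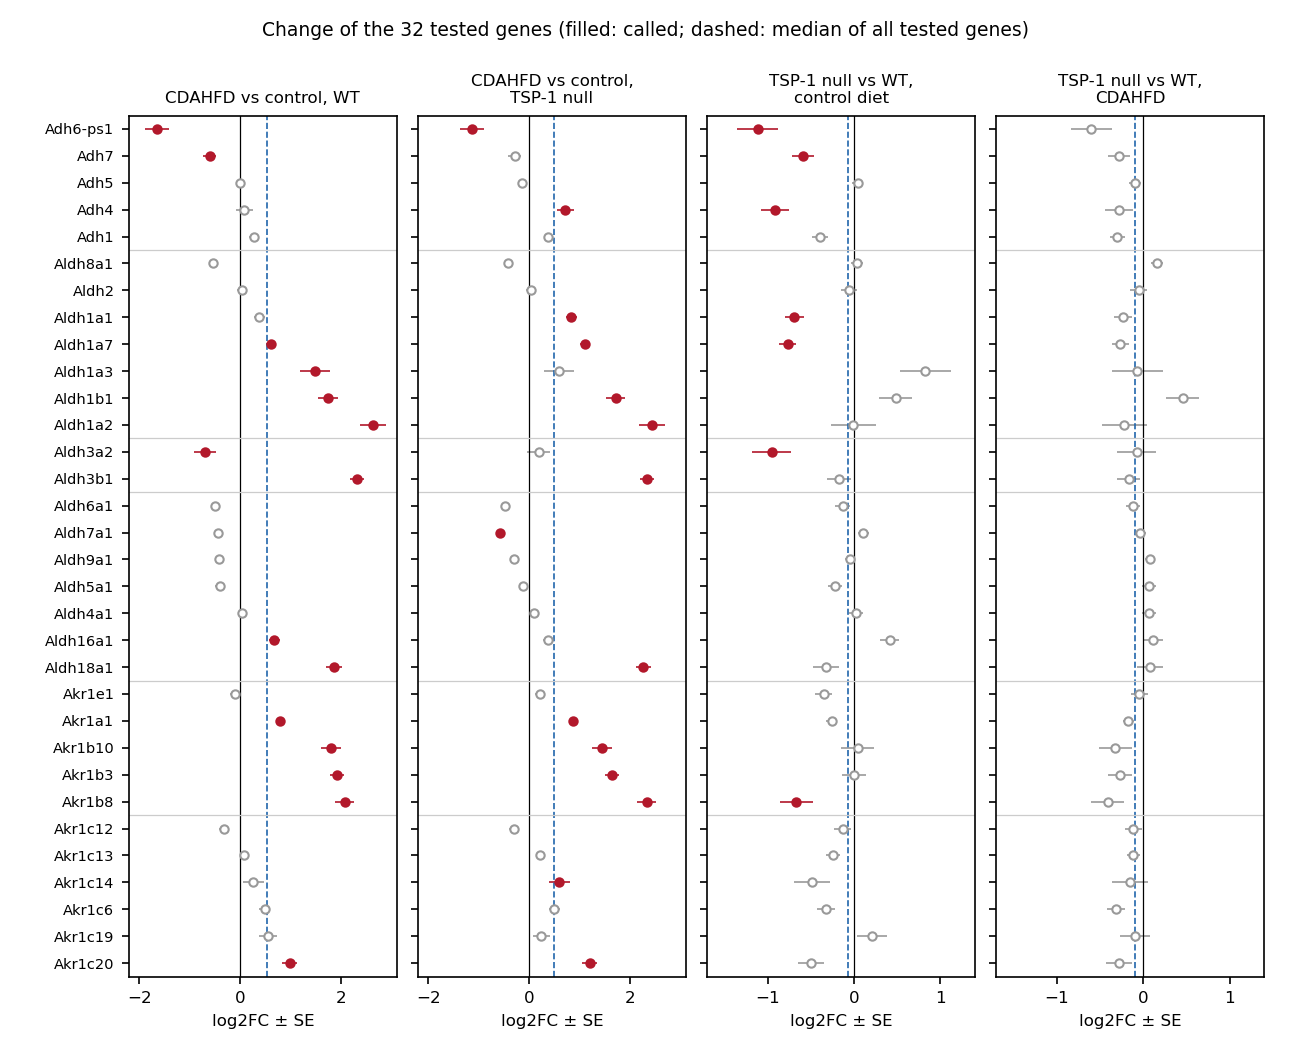
Log2FC ± SE from limma of the 32 tested genes in the diet comparison of each genotype and the genotype comparison on each diet, by role. Filled points were called, and the dashed line is the median of all 14524 tested genes. In the diet panels 12 and 13 points are called on the right and 3 and 2 on the left, and under median of ratios scaling 8 and 8 on the right and 10 and 9 on the left. Of all tested genes 48.8% and 45.9% were called in these panels, and 38.15% and 35.84% under that scaling. In the genotype panels the 7 called points are all on the left and on control diet, where that scaling gave 6 lower and 1 higher.

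Among the alcohol dehydrogenases none was called higher with CDAHFD in WT. Adh6-ps1 measured 21.2, 45.8, 17.6, 12.9 and 22.8 FPKM in the NDWT libraries and 9.02, 5.04, 7.30, 7.76 and 6.22 in HFWT, and 8.51, 9.39, 11.5, 11.0 and 10.2 in NDKO and 5.47, 5.52, 3.75, 4.01 and 4.25 in HFKO. It fell in both genotypes without overlap, with a log2FC of -1.65 ± 0.24 (FDR = 3.77e-06) in WT and -1.13 ± 0.24 (FDR = 0.000266) in TSP-1 null. Its transcript shared 29 stretches of 31 bases with Adh1. Adh7, an alcohol dehydrogenase active on retinol and best known from stomach, measured 6.85, 8.84, 7.32, 6.02 and 9.66 FPKM in NDWT and 4.49, 5.43, 5.27, 5.00 and 4.88 in HFWT. The fall in WT (-0.60 ± 0.13, FDR = 0.000352) lay just past the fold threshold and was not called without NDWT mouse 2 (-0.55), NDWT mouse 5 (-0.51) or HFWT mouse 1 (-0.56). In the libraries labelled TSP-1 null, Adh7 measured 4.82, 5.87, 5.38, 4.31 and 4.92 FPKM in NDKO and 4.83, 4.72, 3.55, 4.47 and 3.24 in HFKO, and its log2FC was -0.29 ± 0.13 (FDR = 0.0543). Under median of ratios scaling Adh7 was called lower in both, at -1.15 and -0.81. Adh1 had log2FC of 0.27 (FDR = 0.00921) and 0.37 (FDR = 0.00096), under the fold threshold. The sign turned to -0.29 and -0.17 under median of ratios scaling, while quantile normalization called Adh1 higher at 0.64 and 0.59. Adh5, which clears formaldehyde bound to glutathione, had group means of 111 to 121 FPKM and log2FC of 0.00 and -0.14, which became -0.56 and -0.67 under median of ratios scaling, the latter called lower.

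Among the enzymes for acetaldehyde and retinaldehyde, Aldh1b1 and Aldh1a2 were higher on CDAHFD in both genotypes. Aldh1b1, a mitochondrial acetaldehyde dehydrogenase, measured 23.2, 18.2, 19.9, 15.4 and 21.8 FPKM in NDWT and 56.8, 52.0, 62.8, 80.5 and 79.3 in HFWT. In the libraries labelled TSP-1 null it measured 43.8, 23.0, 18.4, 23.8 and 34.2 in NDKO and 90.3, 111, 95, 77.5 and 78.3 in HFKO. Each CDAHFD library exceeded each control diet library of its genotype, with log2FC of 1.74 ± 0.19 (FDR = 1.31e-07) in WT and 1.71 ± 0.19 (FDR = 1.79e-07) in TSP-1 null. Aldh2, its abundant mitochondrial relative, had group means of 537 to 573 FPKM and log2FC of 0.03 ± 0.10 (FDR = 0.784) and 0.04 ± 0.10 (FDR = 0.741), each 0.46 or more below the all-gene median.

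Aldh1a2, which makes retinoic acid, was at the floor on control diet. It measured 0.038, 0, 0, 0.051 and 0.044 FPKM in NDWT and 0, 0.019, 0.047, 0 and 0.066 in NDKO, at most 3 fragments in a library, and 0.763, 0.633, 0.566, 0.819 and 0.613 in HFWT and 0.560, 0.367, 0.638, 0.425 and 0.973 in HFKO. Against a floor of 3 fragments per library it was at least 8.55-fold higher on CDAHFD in WT and at least 7.15-fold higher in TSP-1 null. Aldh1a3, another retinoic acid-forming enzyme, averaged 0.111 ± 0.0675, 0.268 ± 0.0855, 0.4930 ± 0.189 and 0.462 ± 0.176 FPKM in NDWT, NDKO, HFWT and HFKO. Its log2FC was 1.48 ± 0.29 in WT, where the groups overlapped and the sign turned to -0.17 under quantile normalization, and 0.58 ± 0.29 in TSP-1 null. It too passed the filter only through CDAHFD libraries, so these values are a description. Markers of other cells moved with the diet beside these genes. All 8 stellate cell and myofibroblast markers were higher in each genotype, their summed level going from 11.5 to 16.8 FPKM in NDWT to 111 to 249 in HFWT, and from 13.7 to 15.4 in NDKO to 101 to 195 in HFKO. Mesothelial markers were higher for 4 of 4 in WT and 2 of 4 in TSP-1 null (0.930 to 2.67 FPKM in NDWT, 7.65 to 18.2 in HFWT), and cholangiocyte markers for all 5 tested of 6 in each genotype (15.2 to 18.01 FPKM in NDWT, 292 to 488 in HFWT). Among hepatocyte zonation markers, 5 of 6 pericentral ones were higher and 1 lower in WT (4 and 1 in TSP-1 null), and of 5 periportal ones 3 were lower in WT and 5 in TSP-1 null. None of the markers in these lists was at 0 throughout a group. The part of these cells in the results was not tested, and in whole liver a change in the number of cells of a type and a change in RNA per cell cannot be told apart.

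Aldh1a1 and Aldh1a7, the neighbours whose promoters are shown above, went the same way. Aldh1a7 measured 74.7, 76.6, 88.0, 58.6 and 80.3 FPKM in NDWT and 127, 109.6, 127, 106 and 103 in HFWT, and the libraries labelled TSP-1 null had 42.4, 45.3, 42.3, 43.2 and 46.9 (NDKO) and 85.2, 110.1, 94.4, 99.3 and 86.8 (HFKO). The groups did not overlap by diet, and the log2FC was 0.60 ± 0.10 (FDR = 1.36e-05) in WT and 1.11 ± 0.10 (FDR = 6.14e-09) in TSP-1 null. In WT the rise was 0.07 relative to the median gene and was not called without NDWT mouse 4 (0.52), HFWT mouse 1 (0.56) or HFWT mouse 3 (0.56). Aldh1a1 measured 587, 642, 698, 580.0 and 682 FPKM in NDWT and 775, 839.6, 1014, 709.8 and 815 in HFWT, and the libraries labelled TSP-1 null had 339.6, 448, 363, 400.02 and 424 (NDKO) and 721, 828, 766, 639.5 and 575 (HFKO). It too was higher in each CDAHFD library than in the controls of its genotype, and was called in TSP-1 null (0.83 ± 0.11, FDR = 1.26e-06) but in WT stayed under the fold threshold (0.38 ± 0.11, FDR = 0.00426). The values relative to the median gene were -0.16 in WT and 0.34 in TSP-1 null. Aldh8a1, an enzyme of tryptophan breakdown that also acts on retinaldehyde, had log2FC of -0.54 ± 0.07 (FDR = 6.17e-07) and -0.41 ± 0.07 (FDR = 1.8e-05), lower without overlap but short of the fold threshold.

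**Figure D3:**
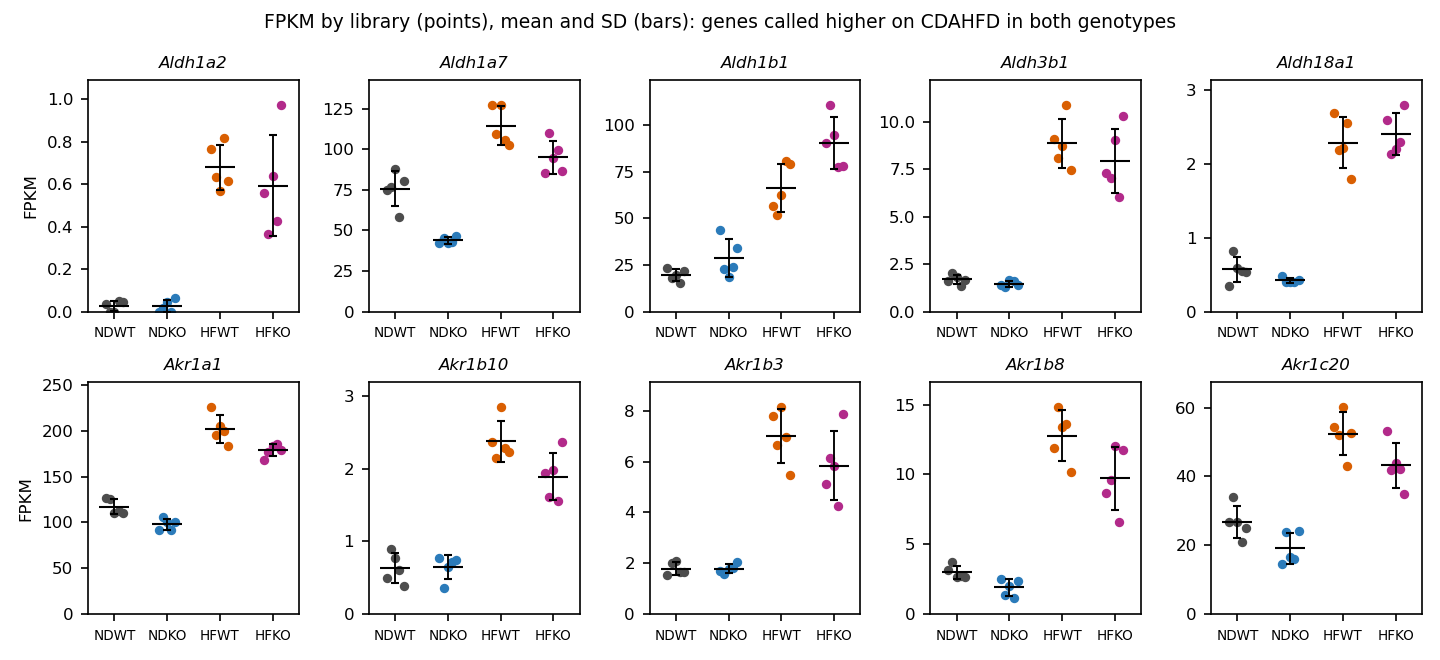
FPKM in each library (points), with mean and SD, of the 10 genes called higher on CDAHFD in both genotypes. The HFWT and HFKO points lie above the NDWT and NDKO points of their genotype in each panel. Under median of ratios scaling Akr1a1 and Aldh1a7 were not called in either genotype and Akr1c20 was not called in WT. Aldh1a2 and Aldh18a1 needed CDAHFD libraries to pass the filter.

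In the Aldh3 family, Aldh3b1, which oxidizes aldehydes formed from peroxidized lipid, measured 1.60, 2.04, 1.80, 1.34 and 1.68 FPKM in NDWT and 9.10, 8.07, 8.73, 10.9 and 7.47 in HFWT, and 1.42, 1.29, 1.65, 1.64 and 1.4 in NDKO and 7.29, 7.02, 9.01, 6.04 and 10.3 in HFKO. The change was alike in size in the genotypes, a log2FC of 2.32 ± 0.14 (FDR = 2.44e-11) in WT and 2.33 ± 0.14 (FDR = 3.38e-11) in TSP-1 null, and gave the lowest FDR of the 32 in both. Macrophage markers moved beside it: 4 of the 5 tested were higher and 1 lower in each genotype, with summed levels of 82.1 to 115 FPKM in NDWT, 369 to 513 in HFWT, 77.8 to 127 in NDKO and 261 to 486 in HFKO, and their part in the result was not tested. Aldh3a2 measured 239.9, 167, 196, 214 and 199.6 FPKM in NDWT and 93.6, 157, 137, 97.0 and 154 in HFWT, and the libraries labelled TSP-1 null had 65.0, 178, 144, 106 and 69.1 (NDKO) and 102, 124, 124, 113 and 129 (HFKO). It fell in WT without overlap (-0.69 ± 0.22, FDR = 0.0093), and in TSP-1 null its log2FC was 0.19 ± 0.22 (FDR = 0.471), from NDKO libraries that were already spread from 65.0 to 178 FPKM.

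Among the enzymes of amino acid and other metabolite pathways, 4 of 7 had negative log2FC in both genotypes, mostly short of the fold threshold. Aldh6a1, which acts in valine breakdown, had log2FC of -0.50 ± 0.09 (FDR = 3.15e-05) and -0.48 ± 0.09 (FDR = 4.56e-05), and Aldh9a1, of carnitine synthesis, had -0.42 ± 0.06 (FDR = 1.45e-06) and -0.30 ± 0.06 (FDR = 8.92e-05). Aldh7a1, of lysine breakdown, had -0.44 ± 0.06 (FDR = 4.71e-06) in WT and fell in TSP-1 null (-0.58 ± 0.06, FDR = 1.49e-07), a call lost without NDKO mouse 1 (-0.57), 2 (-0.57) or 5 (-0.54) or HFKO mouse 5 (-0.55). Under median of ratios scaling Aldh7a1 was called lower in both, at -1.002 and -1.12. These 3 genes were lower without overlap in both genotypes. General hepatocyte markers moved beside them, 2 of 8 being called lower in WT (median log2FC -0.30) and 3 of 8 in TSP-1 null (median -0.46) with 0 higher, none was at 0 in a group, and their part was not tested. Aldh5a1, which clears succinate semialdehyde from GABA, had -0.41 ± 0.08 (FDR = 0.000174) in WT and -0.12 ± 0.08 (FDR = 0.188) in TSP-1 null. Aldh4a1, of proline breakdown, had group means of 49.3 to 53.0 FPKM and log2FC of 0.05 and 0.09. Under median of ratios scaling its log2FC became -0.51 and -0.45, short of the fold threshold.

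Aldh18a1 works in the opposite direction, making proline from glutamate, and it was higher on CDAHFD. It measured 0.348, 0.824, 0.593, 0.544 and 0.542 FPKM in NDWT and 2.68, 2.19, 2.22, 2.55 and 1.79 in HFWT, and 0.476, 0.40, 0.407, 0.399 and 0.425 in NDKO and 2.59, 2.13, 2.20, 2.30 and 2.80 in HFKO. No CDAHFD library reached down to the controls, and the log2FC was 1.86 ± 0.15 in WT and 2.26 ± 0.15 in TSP-1 null. Since it needed CDAHFD libraries to pass the filter, these values are a description. It had 26 to 56 fragments in each control diet library. Aldh16a1 measured 11.8, 13.9, 10.6, 10.7 and 10.6 FPKM in NDWT and 22.7, 15.9, 19.1, 18.3 and 16.5 in HFWT, and the libraries labelled TSP-1 null had 16.5, 17.3, 13.4, 12.5 and 17.5 (NDKO) and 19.7, 18.6, 21.9, 20.0 and 19.4 (HFKO). It rose in WT (0.67 ± 0.11, FDR = 1.65e-05) and was under the fold threshold in TSP-1 null (0.38 ± 0.11, FDR = 0.00451), without overlap in either. Under median of ratios scaling its log2FC was 0.12 in WT, not called, and -0.16 in TSP-1 null.

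Among the Akr1a, Akr1b and Akr1e reductases 4 of the 5 tested genes rose in each genotype, beside 44.1% and 41.9% of all tested genes, and Akr1a1 was not called under median of ratios scaling. Akr1b8 measured 3.15, 3.72, 2.62, 2.72 and 2.67 FPKM in NDWT and 11.9, 14.8, 13.4, 13.6 and 10.2 in HFWT, and the libraries labelled TSP-1 null had 2.52, 1.38, 2.03, 1.17 and 2.38 (NDKO) and 8.64, 9.64, 12.0, 6.58 and 11.8 (HFKO). Akr1b3, the mouse aldose reductase that turns glucose into sorbitol, measured 1.53, 2.00, 2.10, 1.65 and 1.66 FPKM in NDWT and 7.80, 6.64, 8.15, 6.97 and 5.47 in HFWT, and the libraries labelled TSP-1 null had 1.70, 1.58, 1.75, 1.83 and 2.04 (NDKO) and 5.11, 6.13, 5.82, 4.26 and 7.88 (HFKO). Akr1b10, a related reductase, measured 0.498, 0.898, 0.763, 0.610 and 0.383 FPKM in NDWT and 2.37, 2.15, 2.85, 2.28 and 2.23 in HFWT, and the libraries labelled TSP-1 null had 0.768, 0.361, 0.651, 0.708 and 0.742 (NDKO) and 1.94, 1.61, 1.98, 1.56 and 2.36 (HFKO). In all 3 the CDAHFD and control diet libraries were separate in each genotype. Akr1b8 rose by 2.07 ± 0.19 (FDR = 1.4e-08) in WT and 2.32 ± 0.19 (FDR = 3.44e-09) in TSP-1 null, Akr1b3 by 1.91 ± 0.14 (FDR = 4.41e-10) and 1.64 ± 0.14 (FDR = 4.59e-09), and Akr1b10 by 1.80 ± 0.19 (FDR = 9.22e-08) and 1.44 ± 0.19 (FDR = 1.99e-06). Akr1a1, an abundant aldehyde reductase that serves vitamin C synthesis in mice, averaged 117 ± 8.33, 97.8 ± 6.15, 202 ± 15.7 and 179 ± 6.56 FPKM in NDWT, NDKO, HFWT and HFKO. Its log2FC of 0.79 ± 0.06 (FDR = 1.88e-09) and 0.87 ± 0.06 (FDR = 5.65e-10) came to 0.25 and 0.37 relative to the median gene. Akr1e1, an anhydrofructose reductase, had log2FC of -0.10 and 0.21 and was not called, but under median of ratios scaling it was called lower in WT at -0.65 and turned to -0.32 in TSP-1 null.

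Akr1b7, the fourth gene of the chromosome 6 cluster, missed the filter, with means of 0.049 ± 0.0349, 0.0682 ± 0.0565, 0.271 ± 0.0615 and 0.596 ± 0.457 FPKM in NDWT, NDKO, HFWT and HFKO. It was over 0.5 FPKM only in 2 HFKO libraries, and no test of it is given. Its HFWT mean was 1.93 times a floor of 3 fragments per library, but rested on only 4 to 9 fragments per library. The NDWT libraries held at most 2. Its transcript shared 88 stretches of 31 bases with that of Akr1b10.

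The Akr1c hydroxysteroid dehydrogenases responded unevenly. Akr1c20 measured 26.8, 33.8, 26.8, 21.0 and 24.8 FPKM in NDWT and 54.3, 52.1, 60.1, 43.1 and 52.5 in HFWT, and the libraries labelled TSP-1 null had 14.6, 23.8, 16.5, 16.1 and 24.2 (NDKO) and 53.0, 41.8, 43.8, 42.2 and 34.9 (HFKO), without overlap by diet. It rose by 0.98 ± 0.15 (FDR = 7.9e-06) in WT and 1.19 ± 0.15 (FDR = 7.51e-07) in TSP-1 null. Under median of ratios scaling these became 0.42, not called, and 0.66, still called. Akr1c14 was called in TSP-1 null (0.60 ± 0.21, FDR = 0.0147) with overlapping libraries, and lost the call without any 1 of NDKO mice 1 to 4 (0.53 to 0.58) or HFKO mouse 1 (0.56) or 4 (0.47). In WT the Akr1c14 log2FC was 0.26. Under median of ratios scaling the Akr1c14 values were 0.06 in TSP-1 null and -0.30 in WT, neither called. Akr1c6 had log2FC of 0.49 ± 0.11 (FDR = 0.000442) and 0.49 ± 0.11 (FDR = 0.00041), within 0.05 of the all-gene median in each genotype.

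Akr1c12 and Akr1c13, whose transcripts shared the most sequence and whose promoters were the closest of those compared, had log2FC of opposite sign. Under median of ratios scaling Akr1c13 was negative too, at -0.47 in WT and -0.32 in TSP-1 null. Akr1c12 averaged 46.1 ± 5.63, 41.9 ± 3.29, 36.8 ± 3.54 and 34.1 ± 4.46 FPKM in NDWT, NDKO, HFWT and HFKO, and its log2FC was -0.32 ± 0.10 (FDR = 0.00543) and -0.30 ± 0.10 (FDR = 0.00874). Akr1c13 averaged 40.3 ± 2.98, 34.0 ± 2.28, 42.7 ± 2.44 and 39.7 ± 5.04 FPKM, with log2FC of 0.09 ± 0.08 (FDR = 0.335) and 0.21 ± 0.08 (FDR = 0.021). Neither gene reached the fold threshold, their libraries overlapped by diet, and the difference between the genes was not tested. Akr1c19 had log2FC of 0.55 ± 0.18 (FDR = 0.00925) in WT, called at 0.61 to 0.62 without NDWT mouse 2, 4 or 5, and 0.24 ± 0.18 (FDR = 0.23) in TSP-1 null.

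On control diet 7 of the 32 tested genes were lower in the libraries labelled TSP-1 null and 0 were higher (limma, FDR under 0.05 and log2FC beyond 0.58). That is 21.9% of the members, beside 4.77% of all tested genes, of which 1.74% were higher and 3.03% lower. The 7 were Adh4, Adh6-ps1, Adh7, Aldh1a1, Aldh1a7, Aldh3a2 and Akr1b8. In 10 members all NDKO libraries lay below all NDWT libraries and in 0 all above, beside 9.03% of all genes without overlap in either direction. The log2FC was positive in 10 of the 32, and its median was -0.20, beside -0.07 over all tested genes. Under median of ratios scaling 6 were lower and 1, Aldh1a3, was higher, beside 4.661% of all tested genes. At an FDR under 0.05 whatever the fold, 12 were lower and 1, Aldh16a1, was higher, beside 13.07% of all tested genes.

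The alcohol dehydrogenases gave 3 of the 7, all in the chromosome 3 cluster. Adh4, which oxidizes retinol and long-chain alcohols, measured 98.2, 149, 108, 80.7 and 134 FPKM in NDWT and 55.5, 61.2, 53.6, 50.5 and 78.0 in NDKO. No NDKO library reached the lowest NDWT library, and the log2FC was -0.91 ± 0.16 (FDR = 0.00159). On CDAHFD the same gene measured 169, 106, 104, 107 and 115 in HFWT and 116, 91.0, 92.1, 108 and 82.4 in HFKO, ranges that overlapped, with HFWT mouse 1 well above the rest. Adh4 rose with the diet in TSP-1 null (0.72 ± 0.16, FDR = 0.000668) and had a WT log2FC of 0.08 ± 0.16 (FDR = 0.656). Under median of ratios scaling these became 0.18, not called, and -0.48. Adh6-ps1, with the values given above, was lower in NDKO with a log2FC of -1.12 ± 0.24 (FDR = 0.00434), again without overlap, and NDWT mouse 2 at 45.8 FPKM stood above the other NDWT mice at 12.9 to 22.8. Adh7 was lower with a log2FC of -0.59 ± 0.13 (FDR = 0.00539) without overlap, and was not called without NDWT mouse 2 (-0.54) or 5 (-0.51) or NDKO mouse 1 (-0.57) or 4 (-0.54), nor under median of ratios scaling (-0.52). Adh1 had means of 552 ± 60.2 FPKM in NDWT and 419 ± 35.6 in NDKO that did not overlap in range, and its log2FC of -0.40 ± 0.09 (FDR = 0.00635) stayed under the fold threshold. Adh5, the remaining expressed member of the cluster, had a log2FC of 0.04 ± 0.07 (FDR = 0.75).

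The neighbours Aldh1a1 and Aldh1a7 were lower together, with log2FC of -0.69 ± 0.11 (FDR = 0.000538) and -0.77 ± 0.10 (FDR = 7.42e-05), the latter the lowest FDR of the 32 in this comparison. Their NDKO libraries, listed above, reached 448 FPKM for Aldh1a1 and 46.9 for Aldh1a7, under the lowest NDWT libraries of 580.0 and 58.6. Both calls and those of Adh4 and Adh6-ps1 held in all 32 alternative settings tried. Since the transcripts share sequence, some fragments could have been given to either gene. Aldh3a2 was lower with a log2FC of -0.96 ± 0.22 (FDR = 0.00849), but NDKO mouse 2, at 178 FPKM, overlapped the NDWT range of 167 to 239.9. Akr1b8 was lower with a log2FC of -0.67 ± 0.19 (FDR = 0.0272) without overlap, a call lost without NDWT mouse 1 (-0.65) or 2 (-0.59) or NDKO mouse 2 (-0.58) or 4 (-0.52), and with a pseudocount of 1, no filter, quantile normalization or the compared groups fitted alone, the last of which also lost Aldh3a2. Some genes were called only when a mouse was left out: Akr1c14 without NDKO mouse 5 (-0.65), Akr1c20 without NDKO mouse 2 (-0.59) or 5 (-0.59), Aldh1b1 without NDKO mouse 3 (0.62), and Aldh1a3 without NDWT mouse 2 (0.99) or HFWT mouse 4 (0.82).

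Summed over all 40 genes, the level was 3193 to 3783 FPKM in NDWT and 3628 to 4224 in HFWT, compared with 2590 to 3006 in NDKO and 3047 to 3624 in HFKO. In these unscaled values the NDKO libraries were thus the lowest, though close to HFKO at 3006 against 3047 FPKM. No sums were made after median of ratios scaling. Under that scaling the diet log2FC in TSP-1 null was 0.30 for Aldh1a1, -0.50 for Aldh2 and -0.17 for Adh1. The order of the sums across diets may therefore not hold under it. Hepatocyte zonation markers moved beside the genotype comparison on control diet. All 5 periportal markers were called higher in NDKO, with a summed level of 3170 to 3993 FPKM against 1525 to 2306 in NDWT. Of the 6 pericentral markers 0 were called, with sums of 990 to 1201 FPKM in NDKO and 840 to 1219 in NDWT, and of the 8 general hepatocyte markers 1 was higher. None was at 0. The part of zonation in the result was not tested.

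**Figure D4:**
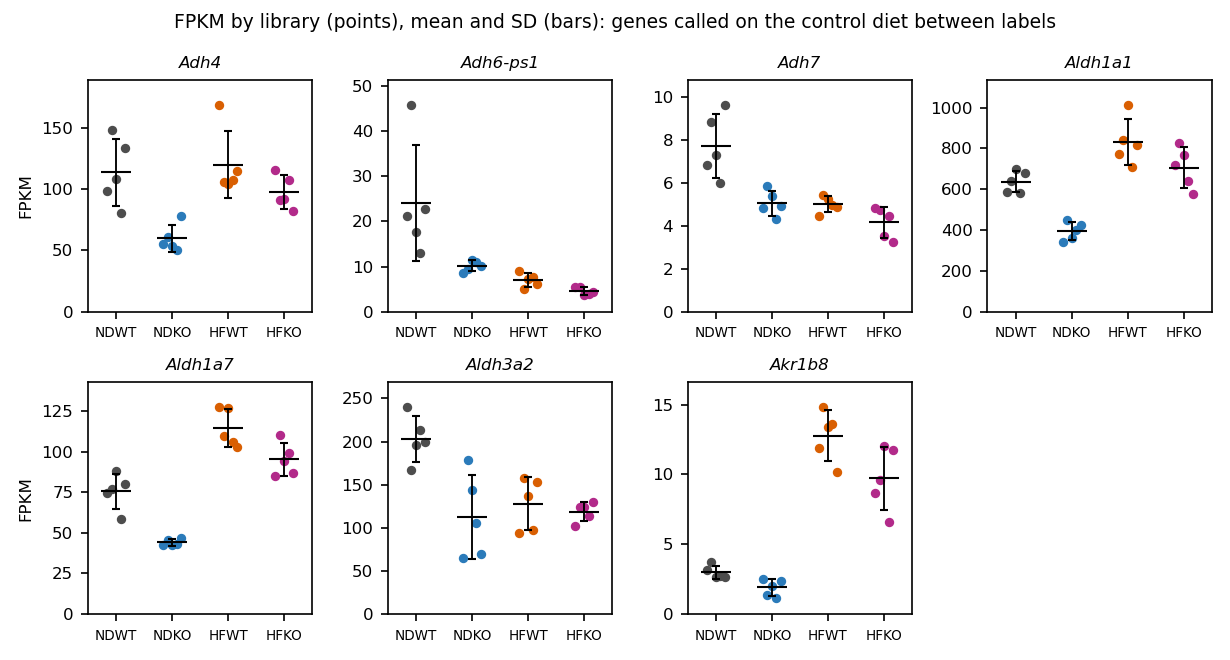
FPKM in each library (points), with mean and SD, of the 7 genes lower in the libraries labelled TSP-1 null on control diet. NDKO points lie below NDWT points in all panels but Aldh3a2, and HFKO points overlap HFWT points in each. Adh7 was not called under median of ratios scaling or quantile normalization, and Akr1b8 was not called under quantile normalization.

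On CDAHFD limma called 0 of the 32 genes between genotypes, beside 0.496% of all tested genes (0.165% higher and 0.33% lower). At an unadjusted p under 0.05 there were 10, of which 8 were lower and 2 higher in HFKO, beside 17.2% of all tested genes, and the lowest FDR was 0.10 for Adh1. Adh1 averaged 665 ± 38.9 FPKM in HFWT and 543 ± 62.0 in HFKO without overlap, a log2FC of -0.30 ± 0.09. Akr1c6 was the other gene whose HFKO libraries all lay below HFWT, with 437 ± 22.6 and 353 ± 48.7 FPKM and -0.32 ± 0.11 (FDR = 0.138). Genes without overlap made up 4.98% of all tested genes. For the 7 genes lower on control diet, the log2FC on CDAHFD was -0.28 for Adh4, -0.60 for Adh6-ps1, -0.28 for Adh7, -0.24 for Aldh1a1, -0.27 for Aldh1a7, -0.08 for Aldh3a2 and -0.41 for Akr1b8. Pericentral markers moved beside this comparison, 3 of 6 being lower in HFKO (sums of 640 to 926 FPKM against 1063 to 1795 in HFWT), while 1 of 5 periportal markers was higher, and their part was not tested.

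Whether the genotype difference itself changed with diet was tested as an interaction, the log2FC on CDAHFD less that on control diet. It called 0 of the 32 genes, beside 0.647% of all tested genes (0.337% higher and 0.31% lower), and 7 had an unadjusted p under 0.05, of which 6 were positive, beside 15.1% of all tested genes. Aldh1a7 came nearest (0.50 ± 0.14, FDR = 0.0789) and was called without NDWT mouse 4 (0.59, FDR = 0.0188). The values for Adh4, Aldh1a1 and Aldh3a2 were 0.63 ± 0.23 (FDR = 0.192), 0.46 ± 0.15 (FDR = 0.156) and 0.88 ± 0.32 (FDR = 0.186). No member passed this test over all 20 mice.

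Akr1c18, which inactivates progesterone, was below the filter and is named after its values were seen. It measured 0.185, 0.088, 0.327, 0.291 and 0.240 FPKM in HFWT and 1.13, 0.371, 0.967, 0.587 and 1.39 in HFKO, against 0.107, 0, 0.093, 0.048 and 0.042 in NDWT and 0, 0.292, 0, 0.052 and 0 in NDKO. Each HFKO library lay above each HFWT library in FPKM, beside 4.98% of all tested genes without overlap in either direction. In fragments the groups overlapped, with 2 to 8 per library in HFWT and 7 to 32 in HFKO. Only HFKO libraries were over 0.5 FPKM, and no test of it is given.

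A list of 36 other enzymes that handle alcohols, aldehydes and carbonyls was counted beside the members. Of its 35 tested genes, 11 rose and 5 fell with CDAHFD in WT, with a median log2FC of 0.11. All 14524 tested genes had a WT median of 0.53, with 44.1% called higher and 4.62% lower. For TSP-1 null the list gave 12 that rose and 6 that fell, with a median of 0.10. There the all-gene median was 0.50, with 41.9% called higher and 4.0% lower. No counts under median of ratios scaling are given for the genes of this list. The largest log2FC among these in WT were 3.87 ± 0.25 (FDR = 7.52e-11) for Cbr3, a carbonyl reductase, 3.57 ± 0.29 (FDR = 2.14e-09) for Ptgr1, which reduces prostaglandins and reactive alkenals, and 3.102 ± 0.21 (FDR = 1.28e-10) for Nqo1, a quinone reductase. Then came Acss1, a mitochondrial acetyl-CoA synthetase, with 2.97 ± 0.21 (FDR = 3.47e-10), Gsta4, which conjugates hydroxynonenal, with 2.52 ± 0.19 (FDR = 6.47e-10), and Rdh11, a retinaldehyde reductase, with 1.42 ± 0.20 (FDR = 2.36e-06). The 5 that fell in WT were Hagh, Rdh16, Glo1, Dhrs4 and Cat, with log2FC of -0.85 to -0.76. Between genotypes on control diet 1 was higher, the carbonyl reductase Cbr1 (0.59 ± 0.16, FDR = 0.0167), and 1 lower, the sorbitol dehydrogenase Sord (-1.27 ± 0.09, FDR = 3.33e-08), beside 4.77% of all tested genes called. Sord, which lies on chromosome 2 as Thbs1 does and acts after Akr1b3 in the polyol pathway, was also the 1 called on CDAHFD (-0.91 ± 0.09, FDR = 5.41e-06). Akr1b3 itself had a genotype log2FC of 0.00 on control diet and -0.27 on CDAHFD.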

How the data were processed

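RNA was measured in 20 mouse livers. The authors prepared poly(A) libraries with a directional kit, sequenced them on an Illumina HiSeq and processed them with QuickRNASeq, and the processing notes of the submitters name STAR 2.5.2 and featureCounts of Subread 1.5.1. The deposited values are FPKM, with no further normalization between libraries. Coordinates in the table are on GRCm38, although the notes name a human build, and all 40 members overlapped their gene in GENCODE M21. FPKM times length and library total came back as whole fragments (within 0.2) for at least 99.9659% of the checked values, which gave the depths and floors. Floors cover counting error only. The lobe sampled is the right medial one in the labels and the right lateral one in the methods.

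Genes were tested with limma 3.58.1 (R 4.3.3; eBayes with trend, 1 mean per group over 20 libraries, two-sided) on log2(FPKM + 0.1), so that fold changes of low genes are understated. DESeq2 and edgeR were not used because the deposited values are FPKM, and the fragments recovered from them did not enter the fit. The minimum of 0.5 FPKM, the FDR of 0.05 and the log2FC of 0.58 follow the study, and 5 libraries over the minimum were required. The fit was tested on simulated data with known changes. Tables and figures used Python 3.11.15, pandas 2.3.3, numpy 2.4.6, matplotlib 3.10.9 and Biopython 1.88. Alternatives were pseudocounts of 0.01 and 1, other filters, median of ratios and quantile scaling, no fold threshold, the compared groups alone, other eBayes settings, a block on replicate number and leaving out each mouse. Replicate numbers showed no sign of pairing the mice. Same-numbered libraries deviated from their group means with correlations of -0.133 to 0.0812, beside -0.132 to 0.131 for differently numbered ones. This check cannot show that the mice were unpaired. No libraries of the same group were copies of each other, the chi-square per degree of freedom within groups being at least 12.1. The labels give no batch.

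The members and gene lists were chosen with earlier results of these data known. All members are named, and values in each library are given for members called between genotypes and for the 3 with the largest WT diet change in each role among called members without overlap. Akr1c18 was named after its values were seen.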

Additional observations from a re-analysis of the deposited data

Results flagged for a closer look

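In 6 of 128 gene and group combinations, 1 library stood apart from the other 4 of its group by more than Dixon's 95% limit, which chance alone would give in about 1 in 20. Adh4 was 168.809 FPKM in HFWT mouse 1 and 104 to 115 in the other HFWT mice. The same mouse had the highest Aldh7a1, 83.738 FPKM against 71.3 to 74.7. Akr1c12 was 42.893 FPKM in HFWT mouse 3 against 33.8 to 36.1, Akr1c14 was 53.906 in NDKO mouse 5 against 28.7 to 33.0, and Akr1c19 was 29.013 in HFKO mouse 4 against 12.7 to 17.2. Akr1b10 was low in NDKO mouse 2, 0.361 FPKM against 0.651 to 0.768.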

How the results depend on the processing

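The total number of members called in each comparison kept within 1.5 times of the reported value under the alternatives except as follows. The split moved more: median of ratios scaling gave 8 higher and 10 lower for the diet in WT and 8 higher and 9 lower in TSP-1 null, and quantile normalization 13 higher and 6 lower, and 13 higher and 4 lower. Of all tested genes 38.15% and 35.84% were called with the former, and 34.95% and 31.72% with the latter. Without a fold change threshold, 25 members were called for the diet in WT (16 higher, 9 lower), 23 in TSP-1 null (17 higher, 6 lower) and 13 between genotypes on control diet (1 higher, 12 lower), beside 73.1%, 71.65% and 13.07% of all tested genes. Leaving out each mouse in turn gave 13 to 15 calls for the diet in WT, 13 to 16 in TSP-1 null, 5 to 9 between genotypes on control diet, 0 to 0 on CDAHFD and 0 to 1 for the interaction, the 1 being Aldh1a7 without NDWT mouse 4. A replicate block, pairing mice by number, left 15, 15, 7, 0 and 0 calls and changed none of these counts. Aldh1a3 turned to -0.17 for the diet in WT under quantile normalization. The cause was not tested. On control diet the number called between genotypes was 8 with a pseudocount of 0.01, 5 with 1, 6 without a filter, 5 with quantile normalization and 5 with the compared groups alone. The 8 genes below the filter rest on few fragments, and no change in them was tested in the reported fit.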
